A study of Mus musculus with 6 samples.

Results

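Heterotrimeric G proteins and the regulators of G protein signalling (RGS proteins) were examined as 1 set of genes, chosen by name from the gene symbols of the array's probe sets. The set held the alpha subunits, the beta subunits Gnb1 to Gnb5, the gamma subunits and every gene whose symbol starts with Rgs and a number, with the highest-mean probe set kept for each gene. These were 54 genes on 55 probe sets, of 19938 genes with 1 symbol in all. They comprised 15 alpha, 5 beta and 12 gamma subunits, 20 RGS proteins, and Rgs7bp and Rgs9bp, which bind and anchor RGS proteins. The stimulatory alpha subunit gene Gnas and the regulator gene Rgs10 had no probe set with that symbol alone and were not analysed here.

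The arrays measured total RNA of adult forebrain cortex from C57BL/6 mice, with 1 Affymetrix array for each sample labelled as a biological replicate. The 3 Dicer KO animals carried CamKII-Cre/+ and Dicer flox/flox, so that Cre is driven by a promoter of excitatory forebrain neurons and both alleles of Dicer are floxed. The 3 controls were littermates of either of these genotypes: CamKII-Cre/+ with Dicer flox/+, or no Cre (+/+) with Dicer flox/flox. Which control had which is not labelled, so all groups carry at least 1 floxed allele and some controls may carry Cre. Glia, vessels and interneurons are not targets of that promoter, and whole cortex holds all of them. The animals were adult, and no age in weeks or months is given.

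A G protein is a switch made of an alpha subunit, which binds GTP when a receptor is activated, and a beta-gamma pair. The alpha classes differ in their targets: the Gi/o class inhibits adenylyl cyclase, Gs and its relative Golf stimulate it, Gq/11 activates phospholipase C beta, and G12/13 acts on the cytoskeleton. RGS proteins speed up GTP hydrolysis and so end the signal, and in cortex they shape how neurons respond to neuromodulators such as acetylcholine, monoamines and glutamate acting through metabotropic receptors.

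Array medians lay between 7.13 and 7.22 on the log2 scale, and any pair of arrays correlated with r of 0.975 to 0.991 over 35557 probe sets, which are not independent replicates. By Y-linked and Xist signal, 2 of 3 Dicer KO arrays and 1 of 3 controls were male. Dicer1 read higher, not lower, in every array labelled Dicer KO, at 9.58, 9.68 and 9.46 against 9.17, 9.21 and 9.18 in the controls. Its difference was 0.39 ± 0.087 (moderated SE), with a limma p of 0.0017 unadjusted and 0.102 adjusted. Whether its probes lie in the floxed exons is not given, so it does not check the labels. The excitatory neuron markers fixed for this work had a mean log2 value of 9.90 to 10.26 per array, and 7 of 9 had a negative difference. Their means in Dicer KO arrays 1 to 3 stood at -0.091, -0.11 and -0.31 from the control mean. Astrocyte markers, 8 of 10 with a positive difference, stood at 0.17, 0.041 and 0.54, and microglia markers at -0.23, -0.51 and 0.50. Single genes weighed on the neuron and astrocyte means of Dicer KO array 3. There Nrn1 read 10.10 (control mean 11.57) and Gfap 10.44 (control mean 8.41). In this bulk tissue, fewer cells of a type and less RNA per cell cannot be told apart, and the part of cell composition in the results below was not tested.

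Rgs4 fell in the Dicer KO cortex, the 1 member that passed the test over all genes. Among the rest, Gna13 and Gnai2 were higher and Gnaz and Gng13 lower in every Dicer KO array, without passing. The 2 promoters shown here are those of Rgs4 and of Gna13, the member with the largest positive difference. Each is the 300 bases from 250 before to 50 after the RefSeq gene start in GRCm38.p6, read 5′ to 3′ along the gene, Rgs4 at chr1:169747593-169747892 on the minus strand and Gna13 at chr11:109362544-109362843 on the plus strand. Capitals mark matches, on either strand, to the TATA box letters TATAAA, to TGACG, the core of the cAMP response element, and to the GC box GGGCGG.

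Rgs4: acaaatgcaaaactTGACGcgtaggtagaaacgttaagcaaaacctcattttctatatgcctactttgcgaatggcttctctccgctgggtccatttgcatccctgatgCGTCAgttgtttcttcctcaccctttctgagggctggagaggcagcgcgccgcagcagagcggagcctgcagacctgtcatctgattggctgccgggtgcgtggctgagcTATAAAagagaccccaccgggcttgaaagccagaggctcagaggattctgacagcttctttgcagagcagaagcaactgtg

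Gna13: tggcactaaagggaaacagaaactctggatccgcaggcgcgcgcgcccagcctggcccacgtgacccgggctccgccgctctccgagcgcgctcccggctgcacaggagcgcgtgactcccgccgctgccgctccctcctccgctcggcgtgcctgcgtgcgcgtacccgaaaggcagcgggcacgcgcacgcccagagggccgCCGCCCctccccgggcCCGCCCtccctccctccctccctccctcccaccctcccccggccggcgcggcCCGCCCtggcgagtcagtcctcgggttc

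The Rgs4 window held 1 TATAAA, starting 31 bases before the gene start, and 2 matches to TGACG, 1 on each strand, with 13 CpG dinucleotides. The Gna13 window held 3 matches to GGGCGG, all on the opposite strand, no match to the other 2 motifs, and 40 CpG dinucleotides. Across all 32851 promoter windows, 13.6% held TATAAA, 20.8% TGACG and 35.7% GGGCGG, and the median number of CpG dinucleotides was 7. Of the 54 members, 39 had a window by symbol, some with more than 1 start. By window, 12.2% of the 49 member windows held TATAAA, 22.4% TGACG and 49.0% GGGCGG, with a median of 17 CpG dinucleotides. By gene, TATAAA stood in windows of 5 of these 39 genes, TGACG in 11 and GGGCGG in 21. Gnai2, Gnaz and Rgs14 were not among the 39. The matches describe letters only, and no binding was measured here.

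Rgs4 encodes an R4-class RGS protein that ends signalling by Gi/o and Gq subunits and is abundant in cortical neurons. Its log2 expression was 11.66, 11.61 and 11.55 in the Dicer KO arrays and 12.20, 12.21 and 12.41 in the controls. All Dicer KO arrays lay below all controls, with a gap of 0.53 between the nearest arrays of the groups. The means were 11.61 ± 0.058 and 12.27 ± 0.12 (SD, n = 3 each), and the difference of -0.67 ± 0.092 (moderated SE) corresponds to a 1.59-fold lower reading (limma adjusted p = 0.0358). Rgs4 ranked 29 by p among all genes. The share of all genes called lower at this threshold, an adjusted p under 0.05, was 0.191%, and 0.281% were called in both directions. Leaving out Dicer KO array 3 kept the Rgs4 call (adjusted p = 0.0416). Leaving out Dicer KO array 1 or 2 or control array 1, 2 or 3 ended it, with adjusted p of 0.113, 0.111, 0.122, 0.136 and 0.0998 and differences between -0.70 and -0.60. With sex as a covariate the difference was -0.65 (adjusted p = 0.127), and without array 3 of both groups it was -0.57 (adjusted p = 0.0537).

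Within each array, Rgs4 was also set against 2 other R4 genes. Rgs4 minus Rgs8 differed by -0.46 between the groups, and Rgs4 minus Rgs5, a gene of pericytes, by -0.56. Both differences had an exact permutation p of 0.1 (two-sided, 3 against 3), the smallest this design allows. Their adjusted p was 0.114 over the 8 within-array pairs computed, as for every pair with an exact p of 0.1. Across all arrays Rgs8 read 8.52 to 8.85 and Rgs5 9.84 to 10.21, spreads narrower than the gap between the Rgs4 groups. Both Rgs4 pairs therefore had to separate the groups, and their p adds nothing to the single-gene result. Gng13 minus Gng3 was another pair with an exact permutation p of 0.1, with a shift of -0.36. Rgs7bp minus Rgs7 shifted by -0.22 and did not separate the groups (exact permutation p = 0.4, adjusted p = 0.4).

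**Figure D1:**
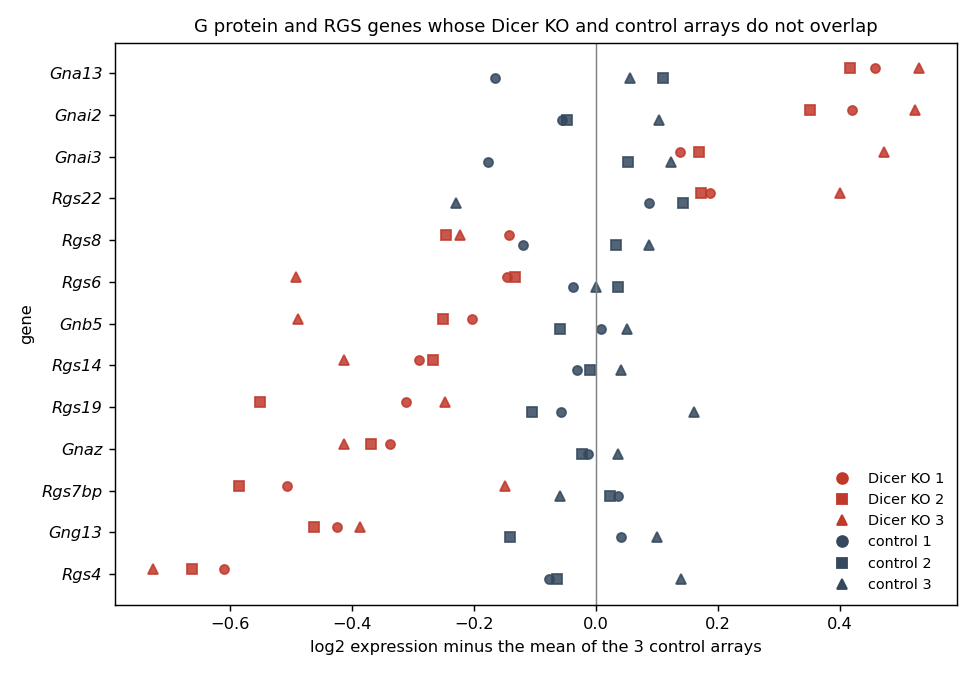
Log2 expression of the 13 G protein and RGS genes whose groups do not overlap, each array drawn as its distance from the mean of the 3 controls (x axis, log2 units; red, Dicer KO; dark blue, control; the symbol gives the array number). Rgs4 has the widest gap between groups, and for Gnai3, Rgs22 and Rgs8 the nearest arrays of the groups almost touch.

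In 13 members the Dicer KO and control arrays did not overlap, 9 of them lower (16.7% of members, where 11.0% of all genes were lower in this way) and 4 higher (7.41%, where 9.30% of all genes were). At an unadjusted p under 0.05 stood 10 lower members (18.5%, against 7.39% of all genes) and 2 higher members (3.70%, against 7.01%). At an adjusted p under 0.1 there were 3 lower members, Rgs4, Gnaz and Gng13 (0.898% of all genes), and 2 higher members, Gna13 and Gnai2 (0.707% of all genes). The median difference over the 54 members was -0.030, beside -0.0092 over all genes. By class, 11 of 15 alpha subunits had positive differences, whereas 15 of 20 RGS genes, 4 of 5 beta and 8 of 12 gamma subunits had negative ones. After median centring the counts of negative differences were 5 alpha, 17 RGS, 4 beta and 9 gamma, and a second quantile normalization left them as they were. With array weights 2 of 5 beta and 6 of 12 gamma subunits were negative. With 1 array left out, the negative differences numbered 12 to 17 of 20 RGS genes (12 without Dicer KO array 1), 4 to 6 of 15 alpha and 4 to 5 of 5 beta subunits. Among gamma subunits they numbered 5 to 8 of 12, and were the minority, 5 of 12, without Dicer KO array 2 or without control array 3. Over all genes 52.7% were negative.

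**Figure D2:**
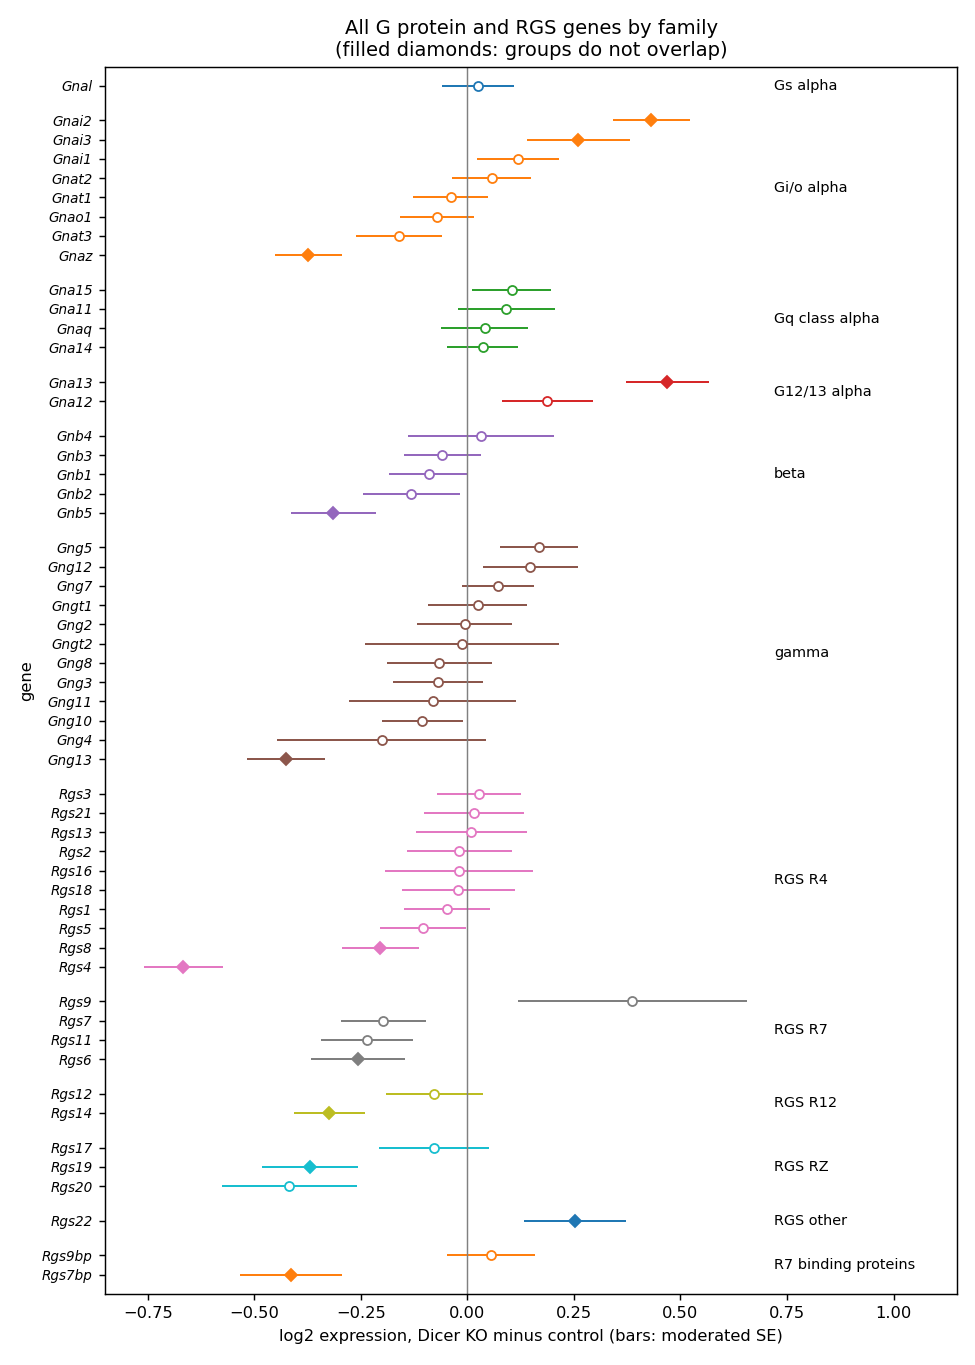
Difference in log2 expression between Dicer KO and control (x axis; bars, moderated SE, n = 3 each) for all 54 genes, ordered by family. Filled diamonds mark groups that do not overlap. Gi/o alpha genes lie on both sides of 0, from Gnai2 at 0.43 to Gnaz at -0.37. Below 0 lie 15 of 20 RGS genes, 5 of them without overlap.

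Among Gi/o alpha subunits, Gnai2, which inhibits adenylyl cyclase and is widely expressed in neurons, glia and blood cells, read 11.18, 11.11 and 11.28 in the Dicer KO arrays and 10.70, 10.71 and 10.86 in the controls. Every Dicer KO array was above every control. The difference was 0.43 ± 0.090 (SE), 1.35-fold, and missed the threshold (limma adjusted p = 0.0878). Gnai3, a close relative, was at 10.08, 10.11 and 10.41 against 9.76, 9.99 and 10.06, a difference of 0.26 ± 0.12 whose groups were only 0.015 apart. Without Dicer KO array 3 the Gnai3 difference was 0.15, and without control array 1 it was 0.17. Gnai1 read 11.35, 11.50 and 11.55 against 11.35, 11.23 and 11.47, so its groups overlapped (0.12 ± 0.097). Gnao1, the Go subunit typical of neurons, read 12.01, 11.91 and 12.11 against 12.11, 12.11 and 12.02, a difference of -0.071 ± 0.088 that was smaller than its error.

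Gnaz, a member of the same class that pertussis toxin does not act on, differed in the opposite direction. Its values of 8.84, 8.80 and 8.76 lay below the control values of 9.16, 9.15 and 9.21, with SDs of 0.038 and 0.032. The difference was -0.37 ± 0.079 (limma adjusted p = 0.0878). Measured within each array, Gnai2 minus Gnaz stood 0.76, 0.72 and 0.94 above the control mean in Dicer KO arrays 1 to 3, against -0.042, -0.025 and 0.067 in the controls. The mean shift was 0.81, beside 0.31 for Gnai2 minus Gnai1, each with an exact permutation p of 0.1, the smallest possible. Because Gnai2 was higher and Gnaz lower in every Dicer KO array, Gnai2 minus Gnaz had to separate the groups. Its p therefore adds nothing to the single-gene results. The transducin genes Gnat1 and Gnat2, of rod and cone photoreceptors, and the gustducin gene Gnat3, of taste cells, had overlapping groups and differences between -0.16 and 0.057.

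Of the G12/13 class, Gna13 read 10.44, 10.40 and 10.52 in the Dicer KO arrays and 9.82, 10.09 and 10.04 in the controls. The lowest Dicer KO array was 0.31 above the highest control. The difference was 0.47 ± 0.097, 1.38-fold (limma adjusted p = 0.0868), the largest positive one in the set. Gna12 read 9.52, 9.36 and 9.72 against 9.29, 9.34 and 9.42, a difference of 0.19 ± 0.11 with overlapping groups. Gna13 minus Gna12 within an array shifted by 0.28 (exact permutation p = 0.1, the smallest possible).

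The Gq/11 alpha subunits all had overlapping groups. Gnaq read 10.84, 10.98 and 10.69 in the Dicer KO arrays and 10.71, 10.90 and 10.78 in the controls, a difference of 0.041 ± 0.10. Gna11 was at 0.091 ± 0.11, Gna14 at 0.036 ± 0.083 and Gna15, best known from blood cells, at 0.10 ± 0.093. Gnal, the Golf subunit that couples dopamine and adenosine receptors to adenylyl cyclase in striatum, read 9.27, 9.10 and 9.19 against 9.12, 9.20 and 9.16. Its difference of 0.025 ± 0.084 was smaller than its error.

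Of the beta subunits, Gnb5 stands apart in function, since it pairs with R7-class RGS proteins in place of a gamma subunit. It read 10.16, 10.12 and 9.88 in the Dicer KO arrays and 10.38, 10.31 and 10.42 in the controls, all lower, with a difference of -0.31 ± 0.099 (limma adjusted p = 0.201). Gnb1 read 12.87, 12.86 and 12.63 against 12.87, 12.88 and 12.89. Only Dicer KO array 3 lay clearly below its controls, and the difference was -0.091 ± 0.093. Gnb5 minus Gnb1 within an array shifted by -0.22 (exact permutation p = 0.1, the smallest possible). Gnb2 was at -0.13 ± 0.11, Gnb3 at -0.059 ± 0.090 and Gnb4 at 0.031 ± 0.17, all with overlapping groups. Gnb4 varied most, at 8.80, 8.49 and 8.03 in the Dicer KO arrays against 8.34 to 8.46 in the controls.

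Of the R7 partners of Gnb5, 3 of 4 had negative differences. Rgs6 read 9.83, 9.84 and 9.48 against 9.94, 10.01 and 9.98, a difference of -0.26 ± 0.11 with no overlap (limma adjusted p = 0.338), or -0.14 without Dicer KO array 3. Rgs7, which with Gnb5 limits Go signalling in neurons, read 9.98, 10.14 and 9.95 against 10.08, 10.26 and 10.32 (-0.20 ± 0.099), and its groups overlapped. Rgs11 was at -0.24 ± 0.11, also with overlap. Rgs7bp, the palmitoylated protein that anchors R7 complexes to the membrane, read 10.79, 10.71 and 11.14 against 11.33, 11.32 and 11.23. Its difference was -0.41 ± 0.12 (adjusted p = 0.173), and without Dicer KO array 3 it was -0.55 and passed (adjusted p = 0.0455). Rgs9bp, the anchor of Rgs9 in photoreceptors, was at 0.055 ± 0.10.

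Rgs9, the R7 member best known from striatum, read 8.12, 7.81 and 8.88 in the Dicer KO arrays and 7.70, 7.64 and 8.31 in the controls. Array 3 was highest in both groups, and the difference was 0.39 ± 0.27 (limma adjusted p = 0.569). It was 0.082 without Dicer KO array 3, 0.62 without Dicer KO array 2 and 0.60 without control array 3. With the replicate number as a block, the SE of the Rgs9 difference was 0.098 (limma adjusted p = 0.0989), though the labels name no pairs. The striatal neuron marker list, 10 of 12 genes measured, had its highest mean in Dicer KO array 3, at 0.47 above the control mean, against -0.076 to 0.058 in the other 5 arrays. The Golf gene Gnal read 9.27, 9.10 and 9.19 against 9.12, 9.20 and 9.16, highest in Dicer KO array 1. Gng7, its gamma partner in striatum, read 9.17, 9.02 and 9.19 against 9.04, 9.06 and 9.07. Its highest value was in Dicer KO array 3, with Dicer KO array 1 close to it. The part of dissection in these values was not tested.

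Gng4, a gamma subunit, read 9.51 in control array 1 and 8.46 to 8.73 in the other 5 arrays. The 12 olfactory bulb markers were 0.82 above the control mean in control array 1 and between -0.48 and -0.33 in the rest. The difference for Gng4 was -0.20 ± 0.25 with all arrays and 0.14 ± 0.11 without control array 1, so its sign rested on that array. The part of dissection in the Gng4 values was not tested.

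**Figure D3:**
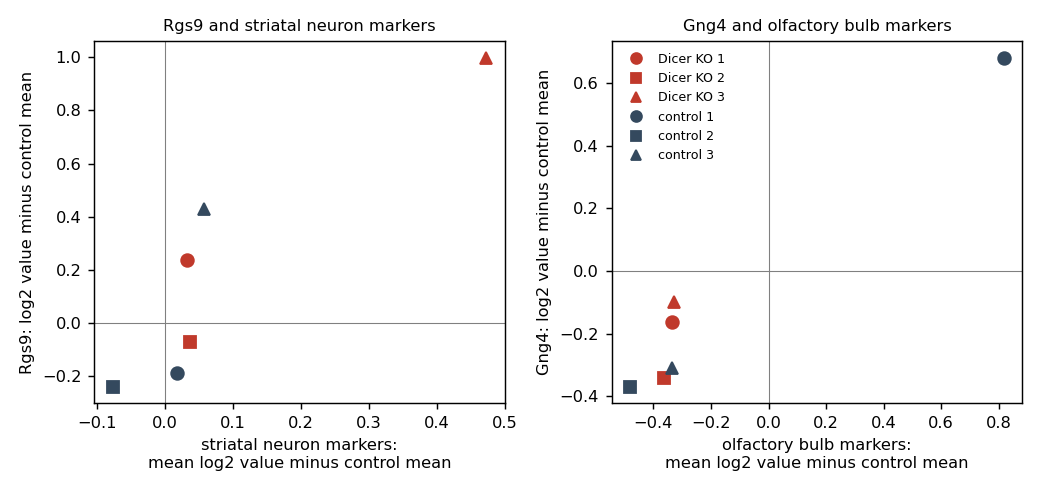
Rgs9 against the mean of striatal neuron markers (left) and Gng4 against the mean of olfactory bulb markers (right), each as log2 distance from the control mean, with 1 point per array. Dicer KO array 3 lies at the upper right for Rgs9 and control array 1 at the upper right for Gng4.

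Of the other gamma subunits, which anchor the beta-gamma pair to the membrane through a lipid, Gng13 was lower in every Dicer KO array. It read 7.65, 7.61 and 7.68 against 8.11, 7.93 and 8.17, a difference of -0.43 ± 0.092, 1.34-fold (limma adjusted p = 0.0898). Gng2 read 9.77, 9.60 and 9.82 against 9.54, 9.81 and 9.86 (-0.0067 ± 0.11), and Gng3 11.39, 11.42 and 11.62 against 11.47, 11.46 and 11.71 (-0.069 ± 0.11). Both of these had overlapping groups. Gng5, Gng10, Gng12, Gng8, Gng11, Gngt1 and Gngt2 also overlapped, with differences between -0.11 and 0.17. Gng11 and Gngt2 had their highest value in Dicer KO array 3, at 6.85 and 6.58. Marker lists above the control mean there included astrocytes (0.54), microglia (0.50), striatal neurons (0.47) and oligodendrocytes (0.42). Excitatory neuron, olfactory bulb and photoreceptor lists stood below it, at -0.31, -0.33 and -0.11. The part of cell composition in the Gng11 and Gngt2 values was not tested.

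The RZ class of RGS proteins acts on Gi/o subunits, Gnaz among them, and all 3 members had negative differences. Rgs19, also called GAIP, read 8.11, 7.87 and 8.17 against 8.36, 8.31 and 8.58, a difference of -0.37 ± 0.11 with no overlap (limma adjusted p = 0.193). Rgs20 read 7.56, 7.26 and 7.94 against 7.90, 7.97 and 8.13. Dicer KO array 3 overlapped the controls, and the difference was -0.42 ± 0.16 (adjusted p = 0.272), or -0.59 without that array (adjusted p = 0.0667). Without Dicer KO array 2 it was -0.26 (adjusted p = 0.543). Rgs17 was at -0.079 ± 0.13.

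In the R12 class, Rgs14, a scaffold that also binds Ras and limits plasticity in hippocampal CA2 neurons, read 8.08, 8.11 and 7.96 against 8.34, 8.36 and 8.42. The groups were 0.24 apart and the difference was -0.32 ± 0.083 (limma adjusted p = 0.135). The markers of hippocampal CA2 and dentate gyrus, 9 of 10 measured, differed by 0.042 on average, 4 below 0 and 5 above, and their part in the Rgs14 reading was not tested. Rgs12 was at -0.077 ± 0.11.

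Of the other R4 genes, Rgs8 was the 1 whose groups did not overlap. It read 8.62, 8.52 and 8.54 against 8.65, 8.80 and 8.85, a difference of -0.20 ± 0.089 (limma adjusted p = 0.344) whose groups were 0.022 apart. Rgs2, a neuronal activity-induced regulator of Gq, read 8.99, 9.21 and 8.96 against 8.88, 9.05 and 9.29 (-0.019 ± 0.12). Rgs5, of pericytes, read 10.03, 9.84 and 10.01 against 10.06, 10.21 and 9.93 (-0.10 ± 0.10), while the pericyte and smooth muscle markers differed by 0.13 on average. Rgs16, whose transcript is inducible and rhythmic in several tissues, read 8.09, 7.93 and 8.52 against 8.10, 7.99 and 8.50, with array 3 highest in both groups and a difference of -0.020 ± 0.17. Rgs3 was at 0.028 ± 0.099. Rgs1, Rgs13 and Rgs18, known from immune cells and platelets, and Rgs21, of taste cells, read between 3.90 and 4.63 in every array and differed by -0.048 to 0.015. These values lay below the lower quartile of the probe sets on each array, which was 5.78 to 5.88, as did those of Gnat3 and Gngt1. Rgs22, known from testis and outside these classes, was at 0.25 ± 0.12 (adjusted p = 0.381), with groups 0.030 apart, and at 0.14 without control array 3.

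Downstream of the G proteins, 71 of 73 listed effectors and modulators were measured and none passed over all genes, with 11 lower and 7 higher at an unadjusted limma p under 0.05 (18 of 71), where 7.39% of all genes were lower and 7.01% higher. Groups did not overlap for 15 lower and 9 higher effectors, where 11.0% and 9.30% of all genes did so. Their median difference was -0.00018. The protein kinase A list, 8 of 9 measured, held the smallest p. Prkar1b, a regulatory subunit of neurons, read 11.45, 11.39 and 11.23 against 11.94, 11.86 and 11.87, a difference of -0.53 ± 0.090 (limma adjusted p = 0.0549). Prkar2b, another regulatory subunit, was at -0.44 ± 0.096 (adjusted p = 0.0908), and the kinase inhibitor gene Pkia was at 0.43 ± 0.090 (adjusted p = 0.0862). In this list of 8, 3 genes were lower and 2 higher without overlap, beside the shares of 11.0% and 9.30% over all genes.

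Of the 4 phospholipase C beta genes, the effectors of Gq, Plcb1 read 11.09, 11.06 and 11.25 against 11.40, 11.50 and 11.46 (-0.32 ± 0.088, limma adjusted p = 0.153) and Plcb4 was at -0.26 ± 0.098, while Plcb3 was at 0.028. Among 4 GIRK channel subunits, which beta-gamma pairs open, Kcnj3 read 9.99, 10.05 and 9.79 against 10.44, 10.33 and 10.23 (-0.39 ± 0.10, adjusted p = 0.141). Kcnj9 was at -0.14 ± 0.17, and Kcnj5 was at -0.013.

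The 10 adenylyl cyclases had a median of -0.054, with Adcy8 at -0.27 ± 0.095, Adcy2 at -0.28 ± 0.099 and Adcy5 at -0.26 ± 0.14. Of 15 cAMP phosphodiesterases, Pde1b was at 0.37 ± 0.082 (limma adjusted p = 0.0985), Pde7b at -0.32 ± 0.088 and Pde8b at -0.30 ± 0.096. Among the receptor kinases and arrestins, 6 of 7 measured, Grk5 was at -0.40 ± 0.11, Grk3 at 0.51 ± 0.14 and Grk6 at 0.13 ± 0.082. Without Dicer KO array 3, Grk3 was at 0.67 and passed (adjusted p = 0.0416). The 15 chaperones and modulators of G proteins included Gpsm2, which holds Gi alpha subunits in their GDP form, at 0.29 ± 0.10, Gprin1 at 0.21 ± 0.081 and Gpsm1 at 0.26 ± 0.13. In the 9 RGS-box proteins outside the Rgs names, the smallest p belonged to Snx13 at -0.18 ± 0.091, Axin2 at -0.13 ± 0.094 and Arhgef1 at 0.10 ± 0.087.

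**Figure D4:**
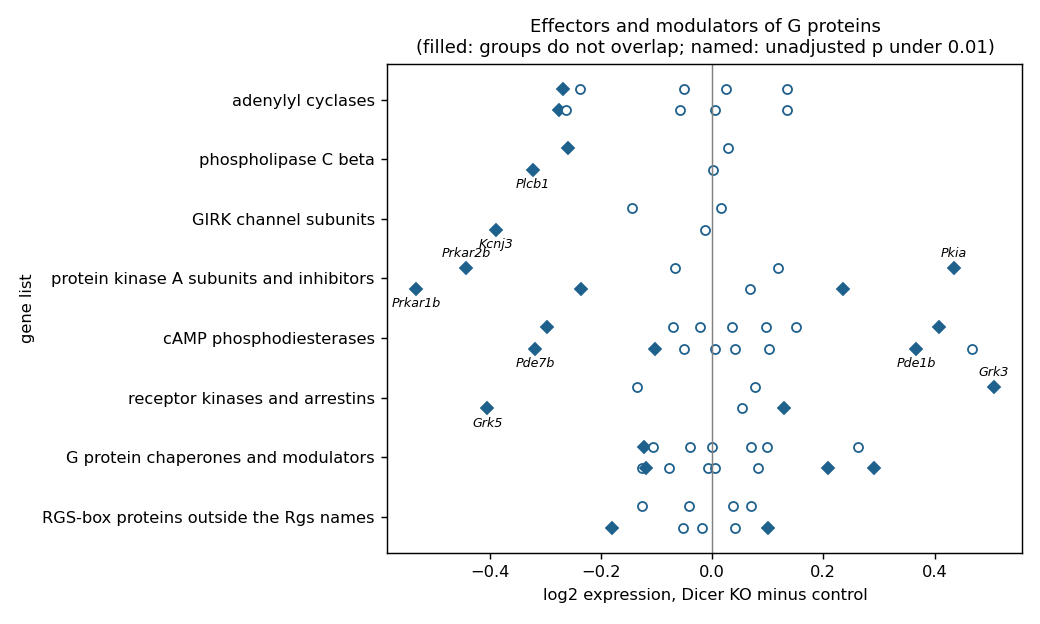
Difference in log2 expression between Dicer KO and control (x axis) for the 71 measured effectors and modulators, with 1 point per gene in each list (y axis). Filled points mark the 24 genes whose groups do not overlap, 15 below and 9 above 0 (all genes: 11.0% below and 9.30% above), and genes of unadjusted p under 0.01 are named.

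**Figure D5:**
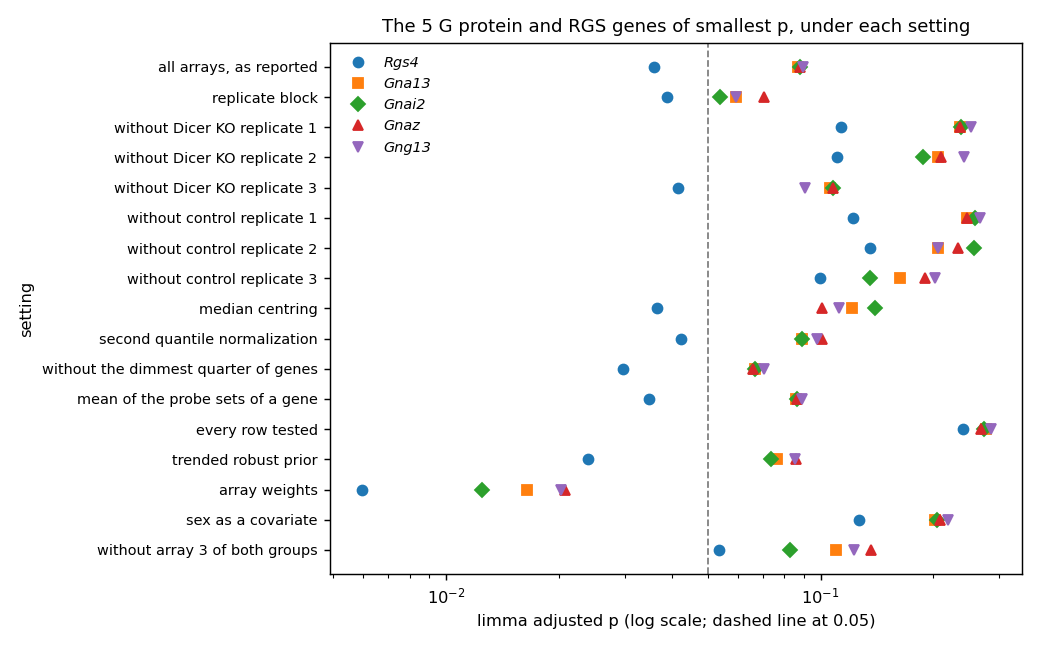
Limma adjusted p (x axis, log scale; dashed line, 0.05) of Rgs4, Gna13, Gnai2, Gnaz and Gng13 with all arrays and under 16 other settings (y axis). Rgs4 passes in 9 of 17 rows, and the other 4 genes lie left of the line only with array weights.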

How the data were processed

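The table of deposited log2 values holds 1 value per probe set and array, from 1.93 to 14.8. RMA and limma are named without versions in the submitters' processing notes; the background step and the genome build were not given in the sources used here. No detection calls were used, and with 3 arrays a group their number limits the precision.

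Of 35557 probe sets, 21789 had 1 gene symbol, 1621 had several and were left out, and 12147 had no listed gene. Symbols were updated by gene identifier (assembly GRCm38.p6), leaving 19938 genes. Differences were fitted across all genes with limma 3.58.1 in R 4.3.3 (group as the only term, two-sided, Benjamini-Hochberg adjustment, threshold 0.05). The labels call the arrays biological replicates. Any 2 arrays differed in at least 35523 rows. Data were simulated over 19938 genes in 5 runs, with 100 genes changed at each size. There 87.0% of changes of 1 and 32.2% of changes of 0.5 (log2) were called, and 4.01% of calls were false. These shares belong to that setting and were not measured on the arrays themselves.

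The members and lists were chosen with earlier results of these data known. Members past the threshold, those with an unadjusted p under 0.05 and no overlap, and a fixed set of genes are given by array, and the 3 genes of smallest p are named per effector list. Other members, the 8 within-array pairs and the comparison of Rgs9 and Gng4 with markers were chosen for display after their values were seen. Pde10a and Rasd2 stand in both an effector and the striatal list. Promoter windows are RefSeq's.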

Additional observations from a re-analysis of the deposited data

How the results depend on the processing

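Of the 54 members, 30 kept the sign of their difference in every alternative, and Rgs4, Gna13, Gnai2, Gnaz, Gng13, Rgs14, Rgs19, Gnb5, Rgs6, Rgs7bp and Rgs8 were among them. Members called numbered 1 with all arrays. They numbered 0 when every row was tested, with sex as a covariate and without array 3 of both groups (a setting chosen after the data were seen), 8 with array weights, 5 at an adjusted p under 0.1, and 0 to 2 when 1 array was left out; where it was 0, 9 to 13 members had an unadjusted p under 0.05. Rgs4 was called with the replicate number as a replicate block (adjusted p = 0.0390). Same-numbered arrays correlated in their deviations at 0.089, 0.17 and 0.29. Arrays 2 and 3 of both groups matched their own number best, as did Dicer KO array 1. Control array 1 correlated slightly more with Dicer KO array 2 (0.094). As the labels name no pairs, the numbers were not taken as pairs, and whether they are was not settled. Over all genes, limma called 56. It called 215 with the replicate block, 98 without the dimmest 0.25 of genes, 1116 with array weights, 320 at an adjusted p under 0.1 and 89 without array 3 of both groups. It called 0 when every row was tested and with sex as a covariate, with 3725 and 2292 at an unadjusted p under 0.05. With 1 array left out it called 0 to 129. Members whose groups do not overlap numbered 16 to 22 with 1 array left out and 29 without array 3 of both groups, where fewer arrays leave less room for overlap. Among the effectors, 0 were called with all arrays, 1 each with the replicate block, without the dimmest genes and with the trended robust prior (Prkar1b each time), 8 with array weights and 4 at an adjusted p under 0.1, and 0 to 1 with 1 array left out. The cause of these differences was not tested. Direction is not settled for the members that changed sign in at least 1 alternative. Among alpha subunits these were Gnal, Gnaq, Gna11, Gna14 and Gnat1, and among beta subunits Gnb2, Gnb3 and Gnb4. Among gamma subunits they were Gng2, Gng3, Gng4, Gng8, Gng11, Gngt1 and Gngt2. The others were Rgs1, Rgs2, Rgs3, Rgs13, Rgs16, Rgs17, Rgs18, Rgs21 and Rgs9bp.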
